A study of Mus with 18 samples.

Results

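The insulin-like growth factor (IGF) and insulin signalling components described here were 10 genes chosen by symbol: the ligands Igf1 and Igf2, the receptors Igf1r and Insr, the receptor substrates Irs1 and Irs2, and the IGF-binding proteins Igfbp3, Igfbp4, Igfbp5 and Igfbp6. Each had 1 row among the 21401 symbols of both expression tables, 1 table from C2C12 cells, a mouse myoblast line, and 1 from gastrocnemius muscle of wild type C57BL/6 male mice. The RNA-seq libraries comprised control, LPS-treated and LPS-MIC-1-treated groups, with 3 libraries in each group of both experiments and 18 in all. LPS is lipopolysaccharide, a bacterial endotoxin, and MIC-1 is moringa isothiocyanate-1, a plant isothiocyanate. The cells received vehicle (saline in the labels, ethanol in the methods of the study), 1 μg/mL LPS, or 1 μg/mL LPS with MIC-1 for 24 h. The labels give 10 μM MIC-1 for these libraries, and the study's account of the sequencing gives a lower concentration. The mice received vehicle, 10 mg/kg LPS by intraperitoneal injection, or the same LPS after 80 mg/kg MIC-1 by gavage on each of 3 days, and muscles were taken 16 h after LPS. There was no group with MIC-1 alone, so effects of MIC-1 itself and effects on the response to LPS cannot be told apart.

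IGF-1 and IGF-2 bind the IGF-1 receptor, insulin binds the insulin receptor, and both receptors phosphorylate the substrates IRS-1 and IRS-2. The substrates recruit PI3-kinase, which activates Akt, and Akt raises mTOR-driven protein synthesis and glucose uptake and keeps FoxO transcription factors out of the nucleus. In the extracellular space, IGF-binding proteins hold most IGF and set how much reaches the receptor. In skeletal muscle this pathway is known for supporting fibre growth, whereas FoxO factors turn on the ubiquitin ligases of muscle atrophy.

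Markers of cell identity went against some labels. In the C2C12 experiment, the libraries labelled control had a summed level of 10340 to 10390 FPKM (fragments scaled to transcript length and to library size) over the 12 macrophage markers found, and those labelled LPS 7457 to 7686 FPKM. The libraries labelled LPS-MIC-1 had 281, 80.1 and 90.7 FPKM. The 11 myogenic markers, among them Des and Cdh15, summed to 833 to 1045 FPKM in the LPS-MIC-1 libraries, but to 0.136 to 0.440 FPKM in the control libraries, where 6 were at 0 in all 3, and to 0.364 to 2.23 FPKM in the LPS libraries, where 5 were at 0. The 8 fibroblast markers followed the same order, with 0.202 to 0.416, 0.973 to 2.11 and 471 to 570 FPKM. The groups of this experiment are therefore named by their labels, and cell identity cannot be told apart from treatment in any comparison that includes the LPS-MIC-1 libraries. In muscle, the fibre markers, led by Acta1 and Ckm, summed to 170700 to 234400 FPKM in all 9 libraries. Of 10 genes known to respond to LPS, 7 were tested in muscle. Between the libraries labelled LPS and control, Saa3 (1.03 against 0 FPKM) and Ccl2 (0.564 against 0.159 FPKM) were called higher and Socs3 (0.697 against 5.50 FPKM) lower. Lcn2 (0.972 against 0.516 FPKM), Nfkbia (23.29 against 20.95 FPKM), Cxcl1 (0.128 against 0.221 FPKM) and Cxcl10 (0.24 against 0.552 FPKM) did not pass. In the libraries labelled LPS-MIC-1, Saa3, Ccl2, Socs3 and Lcn2 averaged 511, 10.4, 5.84 and 1248 FPKM, and all 7 were called higher than in those labelled LPS, 5 of which (Cxcl1, Ccl2, Lcn2, Saa3 and Cxcl10) were tested only because that group was high. The muscle groups are named by their labels below, and whether the labels match the treatments was not tested. An effect of MIC-1 in muscle cannot be told apart from a difference in LPS exposure between these groups. The 12 macrophage markers summed to 18.7 to 21.3 FPKM in control muscle, 23.9 to 27.6 FPKM in LPS muscle, and 40.7, 38.1 and 198 FPKM in LPS-MIC-1 replicates 1, 2 and 3. The neutrophil markers summed to 1.61 to 2.56, 1.58 to 2.02 and 14.2 to 19.7 FPKM, and the endothelial markers to 103 to 107, 65.4 to 68.5 and 107 to 123 FPKM, in the same order of groups. The 8 fibroblast markers summed to 125.4 to 131.1, 129.4 to 131.3 and 142.5 to 161.5 FPKM, but single markers differed. From LPS to LPS-MIC-1, 2 lay higher without overlap and 6 lower, where 64.2% of all genes did not overlap. Mean Dcn went from 74.55 to 119.8 FPKM, and mean Col1a1 from 12.7 to 4.44 FPKM. In such bulk samples, fewer cells of a type and less RNA per cell cannot be told apart.

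In gastrocnemius, Igf1, Irs1 and Igfbp5 were lowest, and Igf1r, Irs2, Igfbp3 and Igfbp4 highest, in the LPS-MIC-1 libraries. Differences were tested with limma on log2(FPKM + 0.1) for the 9475 genes with a mean above 1 FPKM, with p-values adjusted by Benjamini-Hochberg over all of them. A gene passed the test at an adjusted p under 0.05, and was called when its log2 fold change was also over 1 in size. Of the 10 genes, 9 were tested, and Igf2 missed the filter. Between LPS and control, 0 of the 9 were called higher and 1 lower, where 0.654% and 0.591% of all genes were, and 0 passed higher and 3 lower, where 8.25% and 7.48% of all genes did. Between LPS-MIC-1 and LPS, 2 were called higher and 3 lower (9.67% and 5.44% of all genes), and 4 passed higher and 3 lower (28.3% and 28.2%). Between LPS-MIC-1 and control, 2 were called higher and 3 lower (9.33% and 6.12% of all genes), and 5 passed higher and 3 lower (30% and 28.5%). The groups did not overlap for 5, 8 and 8 of the 9 genes in the 3 comparisons, and for 36.5%, 64.2% and 64.6% of all genes. The median log2 fold change of the 9 genes was -0.07, 0.37 and 0.53 in the 3 comparisons, and that of all genes tested was 0.01, -0.01 and 0.01. These comparisons share their groups, so they are not independent of each other. By level per transcript length, the order in control muscle was Igfbp5, Irs1, Igfbp4, Igfbp3, Igfbp6, Igf1, Insr, Irs2, Igf1r and Igf2, and among neighbours only the ranges of Igfbp3 and Igfbp6 overlapped. In LPS-MIC-1 muscle the order was Igfbp5, Igfbp3, Igfbp4, Irs2, Igfbp6, Insr, Irs1, Igf1, Igf1r and Igf2, with overlap between Igfbp3 and Igfbp4 and between Irs1 and Igf1.

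**Figure D1:**
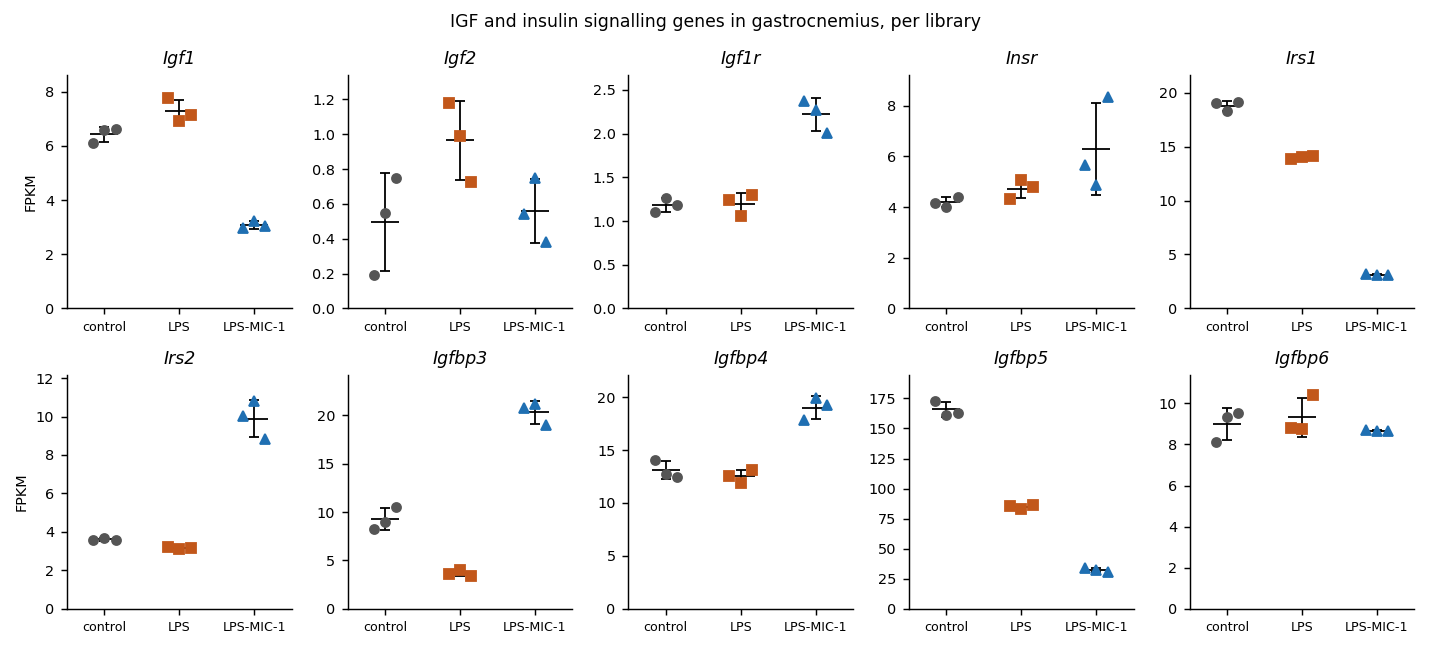
FPKM of each of the 10 genes in the 9 gastrocnemius libraries. Points are libraries (circles control, squares LPS, triangles LPS-MIC-1), bars are mean ± SD (n = 3), and each panel has its own linear axis from 0. Irs1 and Igfbp5 step down from control over LPS to LPS-MIC-1, Irs2 and Igfbp3 are highest in LPS-MIC-1, and Igfbp6 stays between 8.11 and 10.4 FPKM throughout.

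Igf1, the main growth-promoting ligand in muscle, had 6.11, 6.58 and 6.61 FPKM in control, 7.75, 6.92 and 7.16 FPKM in LPS, and 2.96, 3.23 and 3.06 FPKM in LPS-MIC-1 muscle. All LPS libraries lay above all control libraries, but the difference did not pass the test (log2 fold change 0.17 ± 0.0703 SE, adjusted p = 0.14). The LPS-MIC-1 libraries lay below both other groups, and Igf1 fell 2.36-fold from LPS (log2 fold change -1.21 ± 0.0703, adjusted p = 2.02e-06) and 2.09-fold from control (adjusted p = 4.89e-06). Igf2, the ligand best known from fetal growth, was the lowest of the 10 in each muscle group, with 0.191, 0.5499 and 0.748 FPKM in control, 1.18, 0.990 and 0.725 FPKM in LPS, and 0.544, 0.748 and 0.383 FPKM in LPS-MIC-1. All 3 groups overlapped, and without the filter its adjusted p was 0.236, 0.225 and 0.691 in the 3 comparisons. The genes whose levels followed Igf1 most closely over the 9 libraries were Ift27 (Pearson r = 0.997) and Cyb5d2 (r = 0.997), correlations that share the libraries and the 3 group means.

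Igf1r, the receptor for both IGFs, had 1.10, 1.27 and 1.19 FPKM in control, 1.24, 1.06 and 1.30 FPKM in LPS, and 2.38, 2.28 and 2.01 FPKM in LPS-MIC-1. Control and LPS overlapped (log2 fold change 0.01 ± 0.143, adjusted p = 0.968), and every LPS-MIC-1 library was above both. The level rose 1.86-fold over LPS (log2 fold change 0.84 ± 0.143, adjusted p = 0.00117) and 1.88-fold over control (adjusted p = 0.00104), which passed the test but not the fold threshold. Insr, the insulin receptor, had 4.17, 3.996 and 4.39 FPKM in control, 4.32, 5.08 and 4.80 FPKM in LPS, and 5.65, 4.86 and 8.33 FPKM in LPS-MIC-1. The highest value came from LPS-MIC-1 replicate 3, the library with 198 FPKM of macrophage markers, and whether those cells contributed was not tested. Insr did not pass between LPS and control (adjusted p = 0.567) or for LPS-MIC-1 against LPS (log2 fold change 0.37 ± 0.176, adjusted p = 0.11). It passed for LPS-MIC-1 against control (0.54 ± 0.176, adjusted p = 0.0287), but was 0.32 without replicate 3 (adjusted p = 0.033), and no longer passed without any 1 control library (adjusted p = 0.0508 to 0.0764). The likest genes over the 9 libraries were 2410002F23Rik (r = 0.994) and Ppp1cb (r = 0.993) for Igf1r, and Topbp1 (r = 0.961) and Gpnmb (r = 0.954) for Insr.

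The receptor substrates moved in opposite directions in the LPS-MIC-1 libraries. Irs1, the substrate that predominates in control muscle, had 19.0, 18.3 and 19.1 FPKM in control, 13.9, 14.0 and 14.1 FPKM in LPS, and 3.21, 3.11 and 3.09 FPKM in LPS-MIC-1. The 3 groups did not overlap. Irs1 fell 1.34-fold from control to LPS (log2 fold change -0.42 ± 0.0446, adjusted p = 0.00055) and a further 4.47-fold from LPS to LPS-MIC-1 (-2.12 ± 0.0446, adjusted p = 4.77e-09). Irs2, the paralogue that is a known FoxO target in liver, had 3.60, 3.70 and 3.56 FPKM in control, 3.21, 3.09 and 3.17 FPKM in LPS, and 10.0, 10.8 and 8.85 FPKM in LPS-MIC-1. Every LPS library lay below every control library for Irs2, but this small difference did not pass (log2 fold change -0.19 ± 0.0799, adjusted p = 0.153). Irs2 rose 3.14-fold from LPS to LPS-MIC-1 (1.61 ± 0.0799, adjusted p = 7.78e-07) and 2.74-fold from control (adjusted p = 1.57e-06). The ratio of Irs1 to Irs2 within a library was 5.20 ± 0.231 for control, 4.44 ± 0.119 for LPS and 0.319 ± 0.0309 for LPS-MIC-1 (mean ± SD, n = 3), so the more abundant transcript per length was Irs1 in the first 2 groups and Irs2 in the last. The ratio was taken after the values were seen. No group overlapped another, and the exact 2-sided permutation p was 0.1, the smallest that 3 against 3 libraries allow.

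**Figure D2:**
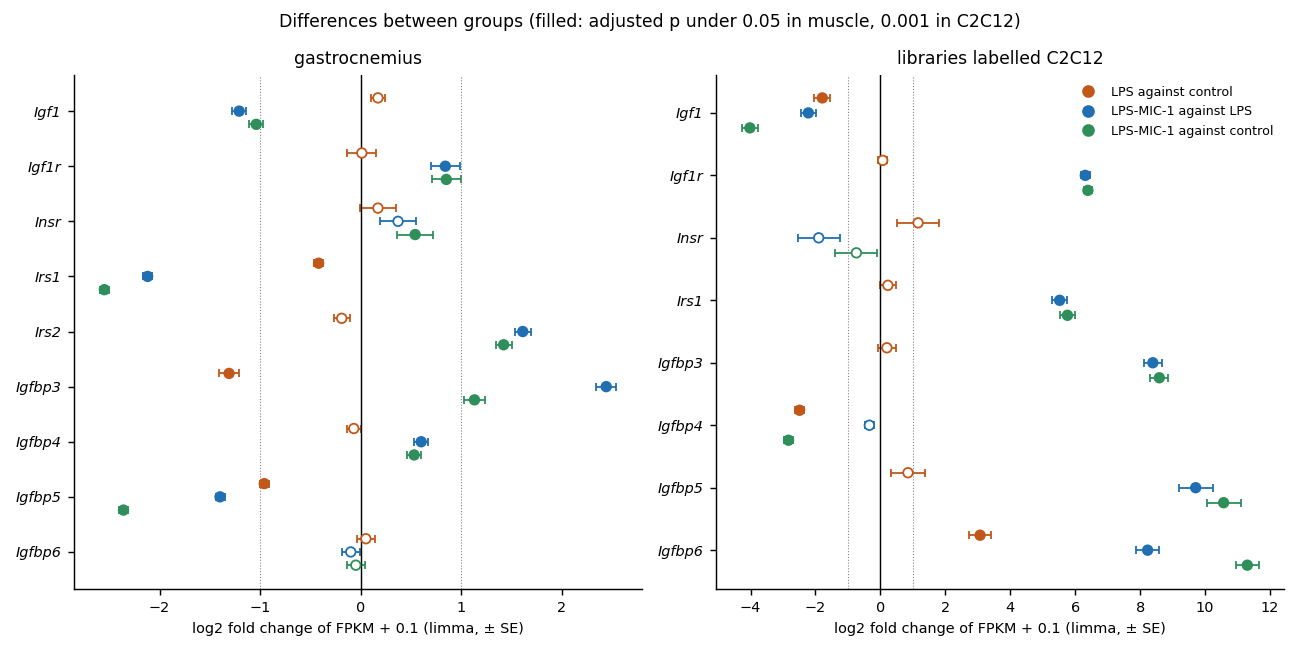
Log2 fold change on the log2(FPKM + 0.1) scale with its standard error (limma) for each gene tested, in gastrocnemius (left, 9 genes) and in the libraries labelled C2C12 (right, 8 genes), with axes of different length. Filled points passed the adjusted p threshold, dotted lines mark a log2 fold change of 1 in either direction, and colours mark the comparison. In muscle, Irs1 and Igfbp5 lie left of 0 in all 3 comparisons. In the C2C12 panel, the positions of Igf1r, Irs1, Igfbp3, Igfbp5 and Igfbp6 for LPS-MIC-1 depend on the pseudocount, and these genes met the filter through that group alone.

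Among the binding proteins, Igfbp5, the most abundant of the 10 transcripts in every muscle group and the form best known from skeletal muscle, had 173, 162 and 163 FPKM in control, 85.8, 83.1 and 86.0 FPKM in LPS, and 33.8, 32.5 and 30.5 FPKM in LPS-MIC-1. It fell 1.95-fold from control to LPS (log2 fold change -0.96 ± 0.0449, adjusted p = 7.48e-06), 2.63-fold from LPS to LPS-MIC-1 (-1.40 ± 0.0449, adjusted p = 6.17e-08) and 5.15-fold from control to LPS-MIC-1 (adjusted p = 2.92e-09). Igfbp3, the main IGF carrier of the circulation, had 8.29, 8.95 and 10.5 FPKM in control, 3.59, 4.0 and 3.37 FPKM in LPS, and 20.7, 21.2 and 19.0 FPKM in LPS-MIC-1. Here the LPS group was lowest and the LPS-MIC-1 group highest, with no overlap. Igfbp3 fell 2.53-fold from control to LPS (log2 fold change -1.31 ± 0.101, adjusted p = 0.000114), and rose 5.56-fold from LPS to LPS-MIC-1 (2.44 ± 0.101, adjusted p = 2.64e-07) and 2.19-fold from control to LPS-MIC-1 (adjusted p = 2.49e-05). The summed endothelial markers were also lowest in the LPS libraries, but single markers differed. From LPS to LPS-MIC-1, mean Cldn5 went from 5.64 to 31.5 FPKM, and mean Kdr from 5.07 to 2.59 FPKM. Between LPS-MIC-1 and control, 2 of the 8 markers lay higher without overlap and 4 lower, where 64.6% of all genes did not overlap. The part of endothelial cells in the Igfbp3 pattern was not tested.

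Igfbp4, generally an inhibitor of IGF action, had 14.1, 12.8 and 12.5 FPKM in control, 12.5, 11.9 and 13.1 FPKM in LPS, and 17.8, 19.9 and 19.3 FPKM in LPS-MIC-1. Control and LPS overlapped (log2 fold change -0.07 ± 0.0672, adjusted p = 0.567), and Igfbp4 rose 1.52-fold from LPS to LPS-MIC-1 (0.60 ± 0.0672, adjusted p = 0.000106), short of the fold threshold. Igfbp6, which prefers IGF-2, had 8.11, 9.36 and 9.52 FPKM in control, 8.78, 8.76 and 10.4 FPKM in LPS, and 8.70, 8.68 and 8.64 FPKM in LPS-MIC-1. The LPS-MIC-1 libraries lay just below all LPS libraries and within the range of control. Its log2 fold changes of 0.05, -0.10 and -0.05, each ± 0.087, did not pass in any of the 3 comparisons (adjusted p = 0.749, 0.365 and 0.656).

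The make-up of the Igfbp3 to Igfbp6 transcripts differed between groups in turn. The summed level of Igfbp3 to Igfbp6 was 197 ± 5.72 FPKM for control, 110 ± 2.58 FPKM for LPS and 80.2 ± 2.504 FPKM for LPS-MIC-1 (mean ± SD, n = 3). Igfbp5 made up 84.1 ± 0.842% of this sum for control, 76.9 ± 0.700% for LPS and 40.2 ± 1.27% for LPS-MIC-1, whereas Igfbp3 made up 4.70 ± 0.654%, 3.32 ± 0.367% and 25.3 ± 0.694%, and Igfbp4 6.64 ± 0.274%, 11.3 ± 0.285% and 23.7 ± 1.52%. These shares were computed after the values were seen, and for each of them the groups did not overlap (exact permutation p = 0.1, the smallest possible).

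**Figure D3:**
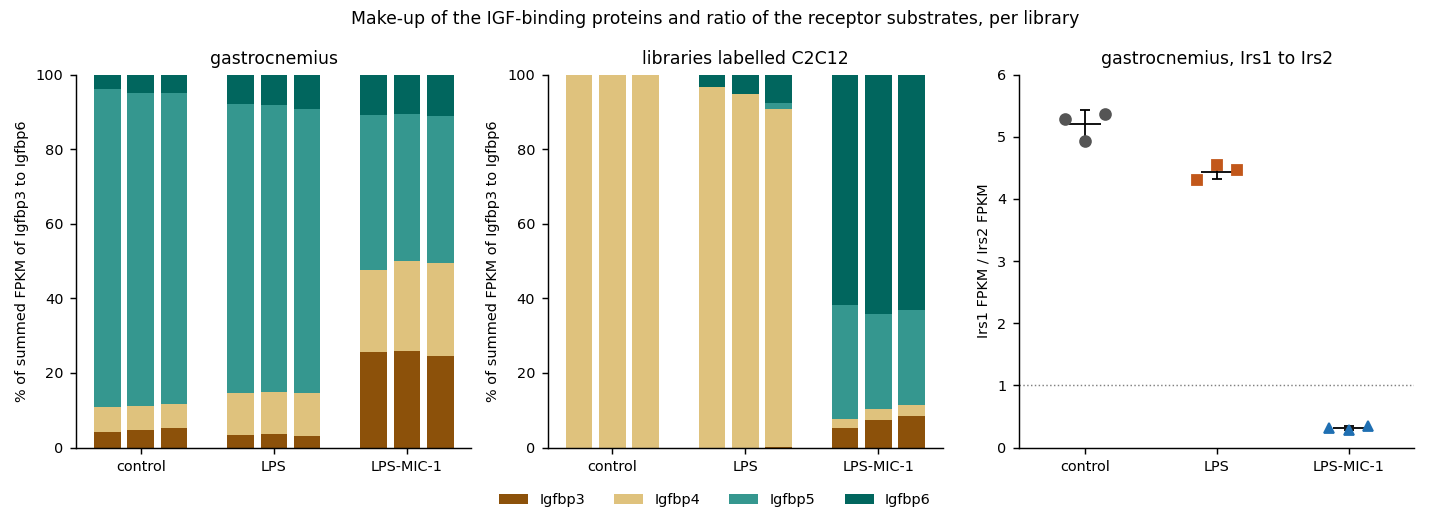
Percentage of the summed FPKM of Igfbp3, Igfbp4, Igfbp5 and Igfbp6 in each library of gastrocnemius (left) and of the libraries labelled C2C12 (middle), and the ratio of Irs1 to Irs2 FPKM in gastrocnemius (right; points are libraries, bars mean ± SD, n = 3, dotted line at 1). Igfbp5 falls from 84.1% in control to 40.2% in LPS-MIC-1 muscle, and the Irs1 to Irs2 ratio lies below 1 in the LPS-MIC-1 libraries only.

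The rest of the pathway was described over 74 further genes, of which 55 were tested in muscle. Between LPS and control, 2 were called higher and 2 lower, where 0.654% and 0.591% of all genes were (9 and 8 passed, against 8.25% and 7.48%), 2 were called in all without LPS replicate 2, and the median log2 fold change of the 55 was 0.03. Cish and Socs2, feedback inhibitors of growth hormone signalling, which drives Igf1 transcription, fell from 47.1 ± 0.283 to 4.42 ± 0.540 FPKM (log2 fold change -3.39, adjusted p = 4.34e-07) and from 23.7 ± 0.630 to 10.6 ± 0.817 FPKM (-1.16, adjusted p = 4.97e-05). The growth hormone receptor gene Ghr itself had 7.83 ± 1.05 and 8.65 ± 3.25 FPKM and did not pass (adjusted p = 0.872). The 2 called higher were Akt2, the Akt form linked to insulin-stimulated glucose uptake, at 9.80 ± 0.922 and 21.2 ± 7.83 FPKM (adjusted p = 0.0157, and 0.0539 without control replicate 1), and Rptor, the mTORC1 scaffold, at 0.321 ± 0.556 and 2.67 ± 1.61 FPKM. The call of Rptor (adjusted p = 0.04) was lost in many alternatives, such as leaving out any of the LPS-MIC-1 libraries (adjusted p = 0.0548 to 0.0603).

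For LPS-MIC-1 against LPS, 11 of the 55 were called higher and 4 lower, where 9.67% and 5.44% of all genes were (21 and 13 passed, against 28.3% and 28.2%), with a list median of 0.26. Of the 10 FoxO genes and FoxO target genes tested, 7 were called higher and 1 lower, beside the same shares of all genes, and their median log2 fold change was 2.96, where that of all genes was -0.01. The 3 largest rises of the whole list were in Ddit4, an inhibitor of mTORC1, from 2.51 ± 0.117 to 240 ± 12.4 FPKM (log2 fold change 6.52, adjusted p = 1.22e-09), Pdk4, which blocks pyruvate oxidation, from 25.8 ± 1.12 to 1070 ± 22.8 FPKM (5.37, adjusted p = 2.47e-11), and Trim63, the ubiquitin ligase MuRF1, from 78.9 ± 4.68 to 2263 ± 58.6 FPKM (4.84, adjusted p = 7.47e-11). Among genes picked after their values were seen, Fbxo32, the ubiquitin ligase atrogin-1, rose from 21.9 ± 0.791 to 225 ± 8.08 FPKM, and Foxo1 from 2.85 ± 0.0824 to 35.8 ± 1.89 FPKM (adjusted p = 4.21e-10 and 1.61e-09). Foxo3, Sesn1 and Gadd45a were also called higher, at 3.64, 53.4 and 171 FPKM in LPS-MIC-1 against 0.539, 3.98 and 34.0 FPKM in LPS. Foxo3, under 1 FPKM on average in control and LPS, met the filter through the LPS-MIC-1 group alone and had to differ. Foxo6 was the 1 called lower, from 8.26 ± 0.850 to 3.47 ± 0.231 FPKM (adjusted p = 2.16e-05). Between LPS and control, 1 of the FoxO group passed higher and 4 lower, including Fbxo32, which fell from 33.5 ± 0.115 FPKM.

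The 3 largest falls of the whole list from LPS to LPS-MIC-1 were in Cish, Pik3cd and Tbc1d4. Cish fell from 4.42 to 1.39 FPKM (log2 fold change -1.60, adjusted p = 1.63e-06). Pik3cd, a catalytic PI3-kinase subunit best known from leukocytes, fell from 4.73 ± 0.554 to 1.55 ± 0.300 FPKM (-1.56, adjusted p = 3.94e-05). Tbc1d4, the Akt substrate that holds glucose transporter vesicles, fell from 5.59 ± 0.179 to 2.26 ± 0.208 FPKM (-1.27, adjusted p = 3.24e-06). Genes picked after their values were seen and called higher were Eif4ebp1, the translation repressor that mTORC1 inactivates, from 123 ± 3.63 to 527 ± 28.1 FPKM (2.10), Ptpn1, a phosphatase of the insulin receptor, from 5.77 ± 0.214 to 25.7 ± 1.01 FPKM (2.14), and Pik3r1, the regulatory PI3-kinase subunit, from 3.20 ± 0.103 to 7.43 ± 0.210 FPKM (1.19), all with adjusted p of 5.64e-06 or below. Slc2a4, the insulin-responsive glucose transporter GLUT4, had 266 ± 14.0 FPKM for control, 340 ± 8.48 FPKM for LPS and 348 ± 18.6 FPKM for LPS-MIC-1, and passed for both treated groups against control but not between them (adjusted p = 0.584). Between LPS-MIC-1 and control, 16 of the 55 were called higher and 4 lower, where 9.33% and 6.12% of all genes were (23 and 14 passed, against 30% and 28.5%), the list median was 0.22, and the largest differences were again in Ddit4 (5.77), Pdk4 (4.94) and Trim63 (4.67) above control and in Cish (-4.99), Pik3cd (-1.86) and Foxo6 (-1.25) below it.

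**Figure D4:**
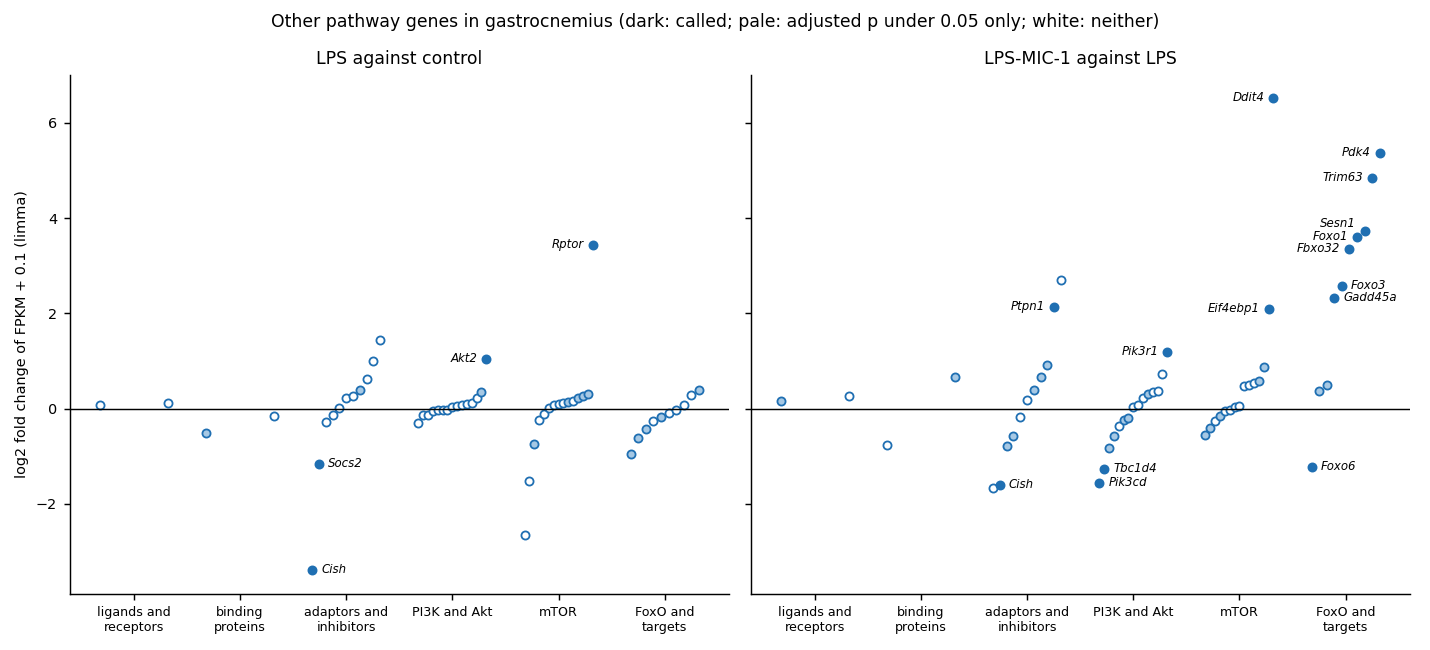
Log2 fold change on the log2(FPKM + 0.1) scale (limma) of the 55 other pathway genes tested in gastrocnemius, by role, for LPS against control (left) and LPS-MIC-1 against LPS (right). Points are genes in ascending order within a role, dark points were called, pale points passed the adjusted p only, and called genes are named. The FoxO group holds 7 called higher and 1 called lower in the right panel and none called in the left.

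In the C2C12 experiment, Igf1, Insr and Igfbp4 were the genes well above 0 in the libraries labelled control and LPS, whereas Igf1r, Irs1, Irs2, Igfbp3, Igfbp5 and Igfbp6 were found almost entirely in those labelled LPS-MIC-1, the group that alone carried the myogenic markers. Igf2 was at 0 in all 9 libraries. The test covered 10877 genes, with an adjusted p under 0.001 to pass and the same fold threshold to be called, and 8 of the 10 genes were tested. Between LPS and control, 1 was called higher and 2 lower, where 10.9% and 10% of all genes were called and 18.6% and 19.3% passed. Between LPS-MIC-1 and LPS, 5 were called higher and 1 lower (24.3% and 25.6% of all genes called, 32.8% and 33.7% passed), and between LPS-MIC-1 and control 5 higher and 2 lower (21.1% and 22.1% called, 29.9% and 30.5% passed). Each gene of the 8 that passed in a comparison was also called in it. The groups did not overlap for 6, 7 and 7 of the 8 genes, and for 79.4%, 85.5% and 83% of all genes. The 5 called higher in the last 2 comparisons exceeded the filter only through the LPS-MIC-1 group, so they had to differ, and their count is a description. Igfbp6, the 1 called higher between LPS and control, was among these 5 and was tested there only because of that group.

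Igf1 had 8.16, 8.90 and 7.21 FPKM in control, 2.41, 2.29 and 2.09 FPKM in LPS, and 0.657, 0.312 and 0.312 FPKM in LPS-MIC-1, with no overlap. It fell 3.58-fold from control to LPS (log2 fold change -1.79 ± 0.24, adjusted p = 0.000271), a call lost when any 1 of the 6 control and LPS libraries was left out (adjusted p = 0.0012 to 0.00185). It fell 5.29-fold from LPS to LPS-MIC-1 (-2.22 ± 0.24, adjusted p = 3.7e-05). Igf1 levels were thus highest where macrophage markers were highest and myogenic markers lowest, and the part of cell identity was not tested. The likest gene over the 9 libraries was Zfp422 (r = 0.996).

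Igf1r had 0, 0 and 0.00413 FPKM in control, 0, 0.00501 and 0.0149 FPKM in LPS, and 8.18, 9.13 and 7.86 FPKM in LPS-MIC-1. The receptor transcript was therefore close to 0 in 6 libraries and similar in the remaining 3, a pattern it shared most closely with Pcdh19 and Pet2 (r = 1.00 for both). Insr had 2.52, 2.69 and 2.91 FPKM in control, 6.13, 5.82 and 6.54 FPKM in LPS, and 2.90, 3.14 and 0.386 FPKM in LPS-MIC-1. All LPS libraries were above all others, but replicate 3 of LPS-MIC-1 stood far below its group. With all 9 libraries sharing 1 spread, Insr did not pass in any comparison (log2 fold change 1.16 ± 0.647, -1.90 ± 0.647 and -0.74 ± 0.647, adjusted p = 0.155, 0.0238 and 0.314). Without that replicate, Insr passed in LPS against control (1.16 ± 0.0879, adjusted p = 2.19e-05) and in LPS-MIC-1 against LPS (-1.01 ± 0.0983, adjusted p = 5e-05), and the difference between LPS-MIC-1 and control became 0.15 (adjusted p = 0.182). By the steps of its low values, this library had an estimated 0.464 of the depth of control replicate 1, the lowest of the 9. The estimate is loose, since 11.7% of its low values lay within 0.05 log2 units of their mode. That share was 9.7% and 6.9% in LPS-MIC-1 replicates 1 and 2, and 18.1% to 26.8% in the LPS and other control libraries. Its intestinal markers summed to 10.6 FPKM, against 1.504 and 2.04 FPKM in the other LPS-MIC-1 libraries. Whether depth or these markers bear on its Insr level was not tested. The likest genes of Insr were Mir2861 (r = 0.987) and Zfp408 (r = 0.986).

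Irs1 had 0.00554, 0 and 0.0108 FPKM in control, 0.0197, 0.0197 and 0.0327 FPKM in LPS, and 5.47, 7.98 and 4.004 FPKM in LPS-MIC-1, and Irs2, which missed the filter, had at most 0.0147 FPKM in control and 0.00888 FPKM in LPS, and 2.59, 2.81 and 1.93 FPKM in LPS-MIC-1. Both substrates were thus at or near 0 outside the LPS-MIC-1 libraries. Irs1 is among the 5 called higher above, a call that had to come out because it met the filter through that group alone. Irs2 missed the filter, and no test of it is given.

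Igfbp4 was the 1 binding protein with appreciable levels in all groups, at 110, 110 and 115 FPKM in control, 18.7, 20.2 and 20.3 FPKM in LPS, and 12.8, 14.8 and 19.9 FPKM in LPS-MIC-1. It fell 5.65-fold from control to LPS (log2 fold change -2.49 ± 0.142, adjusted p = 2.21e-06) and did not pass for LPS-MIC-1 against LPS (-0.34 ± 0.142, adjusted p = 0.0515), where it did without LPS-MIC-1 replicate 3 (-0.52, adjusted p = 0.000293). Igfbp6 had 0.0896, 0.0443 and 0 FPKM in control, 0.635, 1.12 and 1.70 FPKM in LPS, and 326, 328 and 412 FPKM in LPS-MIC-1. It was called higher in LPS than in control (adjusted p = 1e-04), at low levels and tested only because the LPS-MIC-1 group was high. The highest LPS value came from replicate 3. Myogenic markers summed to 2.23 FPKM in that library, against 0.369 and 0.364 FPKM in LPS replicates 1 and 2. Whether this bears on its Igfbp6 level was not tested. Igfbp6 was the most abundant of the 10 in LPS-MIC-1. Igfbp5 was listed at 0 in all control libraries, had 0.0104, 0.0104 and 0.383 FPKM in LPS, and 162, 130 and 166 FPKM in LPS-MIC-1. Igfbp3 was listed at 0 in all control libraries and in LPS replicates 1 and 2, had 0.0520 FPKM in LPS replicate 3, and 27.1, 38.0 and 55.1 FPKM in LPS-MIC-1. Fitted fold changes of genes this close to 0 depend on the pseudocount and are not given as folds. Igfbp4 made up 99.96 ± 0.0409% of the summed FPKM of Igfbp3 to Igfbp6 in control and 94.0 ± 3.15% in LPS, and 2.79 ± 0.328% in LPS-MIC-1, where Igfbp6 made up 63.0 ± 1.21% and Igfbp5 27.2 ± 3.02%.

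**Figure D5:**
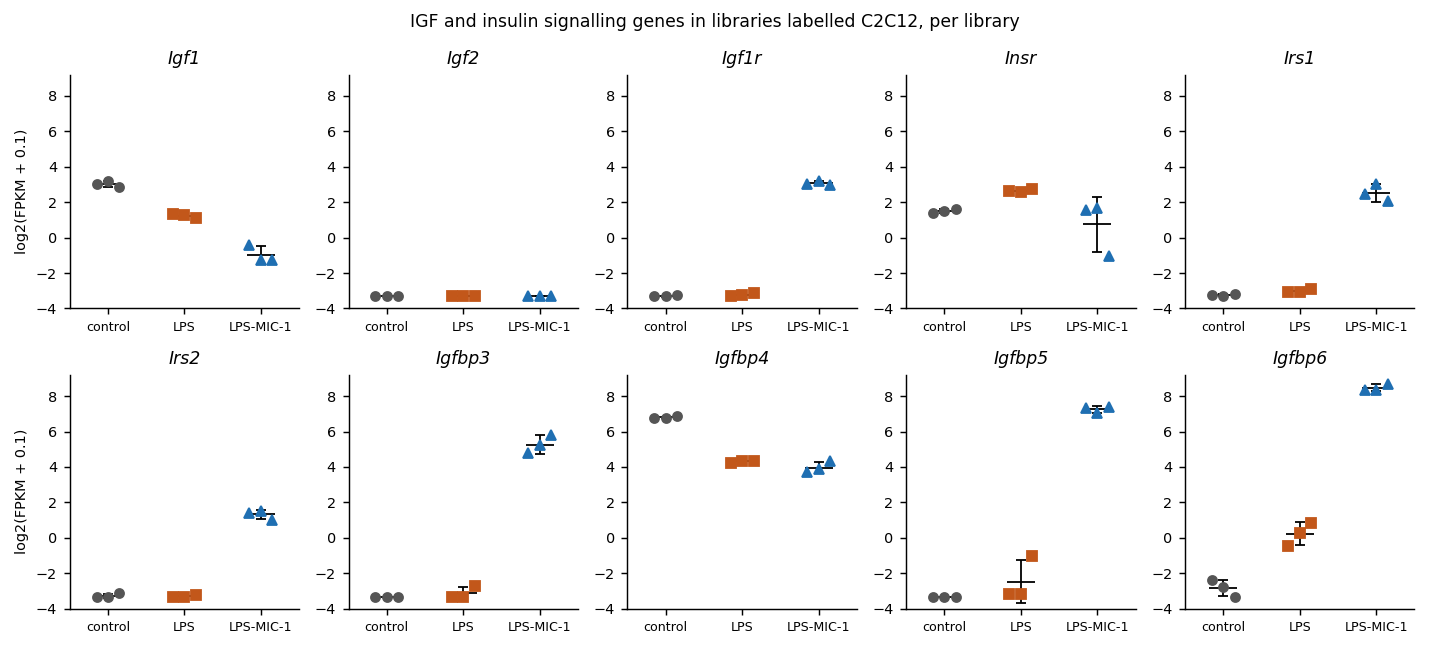
Level of each of the 10 genes in the 9 libraries labelled C2C12, as log2(FPKM + 0.1), all panels on 1 axis. Points are libraries (circles control, squares LPS, triangles LPS-MIC-1), bars are mean ± SD (n = 3), and 0 FPKM lies at the bottom of the points. Igf1r, Irs1, Irs2, Igfbp3 and Igfbp5 lie near that level in control and LPS, Igfbp6 lies at it in control only, and LPS-MIC-1 replicate 3 stands apart for Insr.

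Of the 74 other pathway genes, 57 were tested in this experiment. Between LPS and control, 11 were called higher and 2 lower, where 10.9% and 10% of all genes were (18 and 8 passed, against 18.6% and 19.3%), with a list median of 0.13 on the log2 scale where that of all genes was 0. The largest rises were in Cish, from 0.0405 ± 0.0433 to 17.0 ± 1.43 FPKM, Ddit4, from 5.08 ± 1.15 to 67.2 ± 1.32 FPKM (log2 fold change 3.72, adjusted p = 6.37e-07), and Gadd45a, from 2.52 ± 0.0688 to 34.2 ± 0.935 FPKM (3.71, adjusted p = 1.17e-08). Cish met the filter through the LPS group alone, and its call was lost without control replicate 1 or 2 or any 1 LPS library (adjusted p = 0.00107 to 0.0012) and with a pseudocount of 0.01 (adjusted p = 0.0027). Trib3, an inhibitor of Akt picked after its values were seen, rose from 8.15 ± 0.665 to 61.5 ± 0.886 FPKM (2.90, adjusted p = 3.79e-07). The 2 called lower were Deptor, an mTOR inhibitor, from 5.26 ± 0.0464 to 1.21 ± 0.0269 FPKM (-2.04, adjusted p = 3.51e-07), and Sesn1, an inhibitor of mTORC1, from 32.9 ± 1.65 to 11.5 ± 0.790 FPKM (-1.51, adjusted p = 8e-07).

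For LPS-MIC-1 against LPS, 11 were called higher and 22 lower, where 24.3% and 25.6% of all genes were (14 and 29 passed, against 32.8% and 33.7%), with a list median of -0.69. Of the 18 PI3-kinase and Akt genes tested, 0 were called higher and 12 lower (2 and 14 passed), beside the same shares of all genes, and their median log2 fold change was -1.30, where that of all genes was -0.05, in a comparison in which the summed macrophage markers also differed, from 7457 or more to 281 FPKM or less. The largest falls were in Tbc1d1, from 6.43 ± 0.255 FPKM to a listed 0 in all 3 libraries, Pik3cd, from 19.0 ± 0.699 to 0.296 ± 0.326 FPKM (adjusted p = 2.4e-05, and 0.00102 with a pseudocount of 0.01), and Cish, from 17.0 to 0.696 ± 0.666 FPKM. The call of Cish was lost without LPS-MIC-1 replicate 2 or any 1 control or LPS library (adjusted p = 0.00143 to 0.00309), with the 6 libraries alone (0.00345) and with a pseudocount of 0.01 (0.0106). Akt1 and Igf2r, the scavenger receptor of IGF-2, both picked after their values were seen, fell from 91.3 ± 2.13 to 39.4 ± 5.61 FPKM (-1.22, adjusted p = 4.53e-06) and from 30.5 ± 0.400 to 7.70 ± 0.320 FPKM (-1.97, adjusted p = 8.35e-09). The largest rises were in further extracellular regulators, with Igfbp2 at 0.137 ± 0.237 and 218 ± 28.7 FPKM, Igfbp7 at 0.328 ± 0.268 and 176 ± 22.2 FPKM, and Stc1, an inhibitor of the protease that cleaves Igfbp4, at 0.0221 ± 0.0253 and 29.2 ± 5.78 FPKM. Ghr, picked after its values were seen, had 0.0344 ± 0.0595 and 9.91 ± 1.55 FPKM. These 4 genes, like Gab1, Grb14 and Foxo6, averaged under 1 FPKM in control and LPS and met the filter through the LPS-MIC-1 group alone, so these 7 of the 11 called higher had to differ. Socs2, at 1.06 FPKM in LPS and 15.8 FPKM in LPS-MIC-1, also met it only with that group. Between LPS-MIC-1 and control, 13 were called higher and 17 lower, where 21.1% and 22.1% of all genes were (15 and 24 passed, against 29.9% and 30.5%). The list median was -0.31 where that of all genes was -0.06. Igfbp2, Igfbp7, Stc1, Ghr, Gab1, Grb14 and Socs2 were among the 13 called higher. They met the filter only with the LPS-MIC-1 group and had to differ here too, so the count of 13 is a description. Igfbp2, Igfbp7 and Stc1 again led the rises. Foxo3 joined Pik3cd and Tbc1d1 among the largest falls, from 21.2 ± 1.38 to 1.78 ± 0.564 FPKM (adjusted p = 7.06e-07).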

How the data were processed

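Groups were taken from the sample labels. The authors pseudoaligned the reads with kallisto and deposited FPKM values per gene symbol and library, in 1 table per experiment, and the submitters' processing notes name the build mm9. The authors also deposited DESeq2 tables of 6 pairwise comparisons (base means, fold changes and p-values), which were not used, nor were 9 unnamed per-sample columns of the muscle table. All 10 symbols matched a RefSeq gene name. No sequence or coordinate is given.

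FPKM + 0.1 was log2-transformed and fitted with limma 3.58.1 in R 4.3.3, per experiment, on 3 group means over 9 libraries with eBayes trend, for genes with a mean FPKM over 1. The Benjamini-Hochberg adjustment ran over every gene tested. The thresholds on adjusted p (0.001 in C2C12, 0.05 in muscle) and on the absolute log2 fold change (1) followed the study. The script was tested on simulated data. Permutation tests were exact and 2-sided. The tables were normalized separately, so experiments were not compared by test. Counts and total depth are unknown, since the steps of low FPKM values gave only the depth of a library relative to control replicate 1 (0.464 to 1.02 in C2C12, 0.988 to 1.11 in muscle), and no counting interval could be given.

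The 10 genes and all lists were chosen with earlier results of these data known. Of the other pathway genes, the text names the 3 called genes with the largest rise and the 3 with the largest fall per comparison among those whose groups do not overlap, and others as picked after their values were seen. For Igf1, Igf1r and Insr the 2 likest genes by Pearson r over 9 libraries are named, except 1 that is not reported here. Alternatives were pseudocounts of 1 and 0.01, no filter or a mean FPKM over 5, median-ratio and quantile scaling, no trend, the 6 libraries compared alone, a replicate block, and each library left out. Nothing states that the 3 libraries of a C2C12 group came from separate cultures, and p-values measure the spread between these libraries, which may be technical.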

Additional observations from a re-analysis of the deposited data

Results flagged for a closer look

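Igf1, Irs1, Igfbp4, Igfbp5 and Igfbp6 were singled out because every library of 1 group lay above every library of another in 1 experiment and below it in the other. The experiments were normalized separately, and these differences in direction were not tested. For LPS against control, mean Igf1 was 2.26 against 8.09 FPKM in the C2C12 libraries and 7.28 against 6.43 FPKM in muscle, mean Irs1 was 0.024 against 0.00546 FPKM and 14.0 against 18.8 FPKM, and mean Igfbp5 was 0.135 against 0 FPKM and 84.9 against 166 FPKM. For LPS-MIC-1, mean Irs1 was 5.82 FPKM in the C2C12 libraries and 3.14 FPKM in muscle, above and below both other groups, and mean Igfbp5 was 152 and 32.2 FPKM, likewise. Mean Igfbp4 was 15.8 against 112 FPKM in control C2C12 libraries and 19.0 against 13.1 FPKM in muscle. Mean Igfbp6 was 355 against 1.15 FPKM in LPS C2C12 libraries and 8.67 against 9.32 FPKM in muscle, where it did not pass the test. For LPS against control, Igf1 in muscle (limma adjusted p = 0.14), Irs1 in C2C12 (0.427) and Igfbp5 in C2C12 (0.192) did not pass either. In the C2C12 experiment, cell identity cannot be told apart from treatment in any comparison that includes the LPS-MIC-1 libraries. Its control and LPS libraries both carried macrophage markers, with sums of 10340 to 10390 and 7457 to 7686 FPKM. Their myogenic markers summed to at most 0.440 and 2.23 FPKM. The LPS against control differences of that experiment are therefore not described as those of myoblasts.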

How the results depend on the processing

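Of 898 values of the 10 genes under an alternative, 875 kept their direction and their side of the adjusted p threshold, 11 no longer passed it, 6 newly passed it and 6 changed sign, and of 926 values of the named pathway genes 897 kept both and 29 no longer passed. The sign changes were Insr in C2C12 between LPS-MIC-1 and control (0.15 without LPS-MIC-1 replicate 3, from -0.74, with a lowest value of -1.21 without replicate 2) and, in muscle between LPS and control, differences near 0: Igf1r (-0.04 without control replicate 1, -0.01 without LPS replicate 1, -0.04 without LPS replicate 3, at most 0.09) and Igfbp6 (-0.02 without control replicate 1, -0.03 without LPS replicate 3, at most 0.09). With a mean FPKM over 5, which tests fewer genes, the genes called in C2C12 went from 6 to 3 between LPS-MIC-1 and LPS and from 7 to 4 between LPS-MIC-1 and control, and the pathway genes called in muscle between LPS-MIC-1 and control from 20 to 13. The pathway genes called in muscle between LPS and control were 2 to 4 when 1 library was left out, with 2 without LPS replicate 2. Quantile scaling moved the median of all muscle genes to -0.123 between LPS-MIC-1 and LPS and to -0.106 between LPS-MIC-1 and control, and Insr no longer passed in the latter (adjusted p = 0.0813). Same-numbered libraries did not deviate together (r of -0.076 to 0.057 in C2C12 and -0.054 to 0.082 in muscle). This shows no shared shift by number, but cannot exclude that the numbers pair them. With the replicate block, the genes called of the 10 were 3, 6 and 7 in C2C12 and 1, 5 and 5 in muscle, 0 of 51 member values changed, and of the named pathway genes only Cish in C2C12 between LPS-MIC-1 and LPS no longer passed (adjusted p = 0.00185).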
